A study of Mus musculus with 24 samples.

Results

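The transcripts of 5 matrix metalloproteinases, Mmp2, Mmp3, Mmp9, Mmp13 and Mmp14, and of 3 of their tissue inhibitors, Timp1, Timp2 and Timp3, were followed across 8 treatments of EMS404 cells. The genes were chosen by symbol, with earlier results of these data known, and all 8 were found among the 16604 genes of the expression table. EMS404 is a single hepatic stellate cell line made from the liver of a C57Bl6 mouse, immortalized with SV40, and it expresses human TLR4 in every group, controls included. The 8 groups of 3 libraries each were SB431542+TGFb, SR9011+TGFb, CLK8+TGFb, TGFb alone, SB431542 alone, SR9011 alone, CLK8 alone and vehicle. SB431542 inhibits the TGFb receptor kinase, SR9011 is an agonist of the nuclear receptor REV-ERB alpha, and CLK8 disrupts the CLOCK:BMAL1 dimer. Cells had compound for 24 hours and then compound with 10 ng/mL TGFb for a further 24 hours. The sources used here give neither the doses of the compounds nor whether cells without TGFb went through the second period. The vehicle group carries the treatment label untreated, while its library names give DMSO.

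Matrix metalloproteinases are zinc endopeptidases that are made as inactive precursors and cleave the proteins of the extracellular matrix. Mmp2 and Mmp9 are the gelatinases, which digest denatured collagen and basement membrane. Mmp3, stromelysin 1, cleaves proteoglycans, laminin and fibronectin and activates other family members, and Mmp13 is a collagenase that cuts native fibrillar collagen. Mmp14 is anchored in the plasma membrane, cleaves fibrillar collagen and activates the Mmp2 precursor. Timp1, Timp2 and Timp3 bind and block active enzymes of this family, though not every enzyme equally. Timp2 also takes part in the activation of Mmp2 by Mmp14, and Timp3 is held in the matrix, where it inhibits several ADAM and ADAMTS enzymes as well. In injured liver, stellate cells activated by TGFb are a source of Timp1, Mmp2 and fibrillar collagen, and their balance of proteases and inhibitors bears on whether scar is laid down or removed.

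In the GRCm38 build all 8 members are protein-coding genes. Mmp13 (ENSMUSG00000050578) lies on the forward strand of chromosome 9 at chr9:7272514-7283331 and Mmp3 (ENSMUSG00000043613) on the same strand at chr9:7445822-7455975, with 162490 bases between the end of Mmp13 and the start of Mmp3. Mmp12 lies between them, at chr9:7344381-7369499. Mmp2 (ENSMUSG00000031740) is at chr8:92827291-92853420, Mmp9 (ENSMUSG00000017737) at chr2:164940780-164955850 and Mmp14 (ENSMUSG00000000957) at chr14:54431612-54445364, all on the forward strand. Timp1 (ENSMUSG00000001131) is at chrX:20870166-20874735 and Timp3 (ENSMUSG00000020044) at chr10:86300372-86349506, both on the forward strand, and Timp2 (ENSMUSG00000017466) is on the reverse strand at chr11:118301069-118355740. Timp1 lies within Syn1 and Timp3 within Syn3, each on the opposite strand, and exons overlap for Timp3 and Syn3. The sources used here do not say whether counting used strand. Syn1 had 0.04 to 0.55 FPKM (fragments scaled to transcript length and library size) and Syn3 0.04 to 0.29 FPKM, far under the inhibitor genes they overlap. Cep295nl, which overlaps Timp2 on the same strand without sharing exons, had 1.05 to 2.88 FPKM.

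RefSeq promoter sequences of GRCm38.p6 were matched for 6 of the 8 members. The 250 bases before the start of Mmp3 and of Mmp13 are shown because these genes of chromosome 9 were the members that TGFb lowered most, and both windows hold the letters of an AP-1 element. Both read 5′ to 3′ on the forward strand, with the AP-1 letters TGANTCA in capitals, Mmp3 from chr9:7445572-7445821 and Mmp13 from chr9:7272264-7272513.
Mmp3: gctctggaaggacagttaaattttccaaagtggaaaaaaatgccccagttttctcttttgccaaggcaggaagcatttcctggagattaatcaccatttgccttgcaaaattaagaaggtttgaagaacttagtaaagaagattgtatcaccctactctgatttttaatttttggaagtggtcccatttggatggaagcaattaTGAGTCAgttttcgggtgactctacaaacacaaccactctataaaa
Mmp13: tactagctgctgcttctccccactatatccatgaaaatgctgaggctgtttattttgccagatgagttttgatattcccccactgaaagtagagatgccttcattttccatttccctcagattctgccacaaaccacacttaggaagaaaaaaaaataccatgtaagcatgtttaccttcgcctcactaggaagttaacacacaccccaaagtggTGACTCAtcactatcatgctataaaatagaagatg
The element begins 46 bases before the start of Mmp3 and 35 bases before that of Mmp13. Searched on both strands, TGANTCA was held by 6.75% of 32851 promoter windows of this length, and among the 6 matched members only by Mmp3 and Mmp13. The RUNX letters AACCACA stood in the Mmp13 window, 119 bases before the start, and in 4.4% of all windows. The TATA letters TATAAA stood 7 bases before the Mmp3 start and 16 before the Mmp13 start, and in 12.4% of all windows. None of the 6 windows held the SMAD letters CAGAC (42.2% of all windows), the E-box CACGTG (6.02%) or the nuclear receptor letters AGGTCA (14.0%). The Mmp3 and Mmp13 windows were also poor in G and C, at 37.6% and 40.4%, against 55.2% for Mmp14, 54.4% for Timp1, 68.0% for Timp2 and 65.6% for Timp3. The median over all windows was 52.4%. A match of letters is a description of the sequence and was not tested for binding.

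FPKM is scaled to transcript length, so levels may be compared between genes. Per library, FPKM summed to 503920 to 610024 and 10780 to 11000 genes reached 1 FPKM. Read totals are unknown, and the smallest value steps gave relative depths of 0.898 to 1.06. Of 14 stellate cell markers, 9 reached 1 FPKM, among them Col1a1 (341.85 to 2617.3), Pdgfrb (9.92 to 39.9), Lhx2 (8.3 to 13.03) and Hand2 (23.42 to 97.59). Reln was 0 in every library, Des reached at most 0.39, Ngfr 0.15 and Hgf 0.55 FPKM, and Lrat was not analysed here. All 4 mesothelial markers (Msln, Upk3b, Wt1, Lrrn4) also reached 1 FPKM. Their sum was 320.5 to 382.6 FPKM with SB431542+TGFb, 62.7 to 77.0 with SR9011+TGFb, 58.8 to 72.0 with CLK8+TGFb and 150.3 to 159.5 with TGFb. Without TGFb it was 398.3 to 418.7 with SB431542, 61.5 to 91.9 with SR9011, 83.6 to 102.7 with CLK8 and 305.3 to 327.3 with vehicle. Upk3b made up most of the sum with vehicle, and the 4 genes did not move together. Upk3b averaged 28.1 FPKM with SR9011+TGFb, 87.7 with TGFb, 53.7 with SR9011 and 251.8 with vehicle, where Msln averaged 29.3, 7.65, 16.8 and 5.65. Lrrn4 averaged 36.3 FPKM with TGFb and 34.5 with vehicle.

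Of 4 cholangiocyte markers, Krt7 (0.84 to 7.27), Krt19 (0.19 to 2.68) and Sox9 (0.46 to 2.89) reached 1 FPKM and Epcam reached at most 0.27. The sum of the 4 was 9.33 to 9.98 FPKM with SB431542+TGFb, 2.51 to 3.12 with SR9011+TGFb, 3.73 to 5.39 with CLK8+TGFb and 7.2 to 8.43 with TGFb, and 8.92 to 11.4 with SB431542, 4.04 to 4.67 with SR9011, 4.43 to 5.13 with CLK8 and 8.08 to 10.5 with vehicle. Of the macrophage markers Cd68 had 0.83 to 2.9 FPKM, Csf1r reached at most 0.34, Lyz2 0.32, and Ptprc and Itgam 0.02, while Adgre1 and Clec4f were not analysed here. Their sum was between 1.14 FPKM, in a TGFb library, and 3.36 FPKM, in a CLK8 library. Of 5 endothelial markers only Tek reached 1 FPKM (0.66 to 2.92). The part of these markers in the results below was not tested.

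In unstimulated cells the inhibitors and the membrane enzyme stood far above the secreted proteases. With vehicle, Timp2 averaged 311 ± 11.4, Timp3 165 ± 5.25, Mmp14 131 ± 3.41 and Timp1 117 ± 10.4 FPKM (SD, n = 3). These 4 genes ranked 248, 513, 668 and 768 of 16604 genes by level. Mmp3 averaged 16.8 ± 1.64, Mmp2 9.82 ± 0.11, Mmp13 4.6 ± 0.123 and Mmp9 1.76 ± 0.197 FPKM, at ranks 5290, 7165, 9089 and 10404. The secreted proteases were also the most variable across treatments. The highest group mean was 126.2 times the lowest for Mmp13, 102.2 times for Mmp3, 81.3 times for Mmp9 and 22.6 times for Mmp2, against 9.04 times for Timp3, 4.08 for Timp1, 3.67 for Mmp14 and 2.57 for Timp2.

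**Figure D1:**
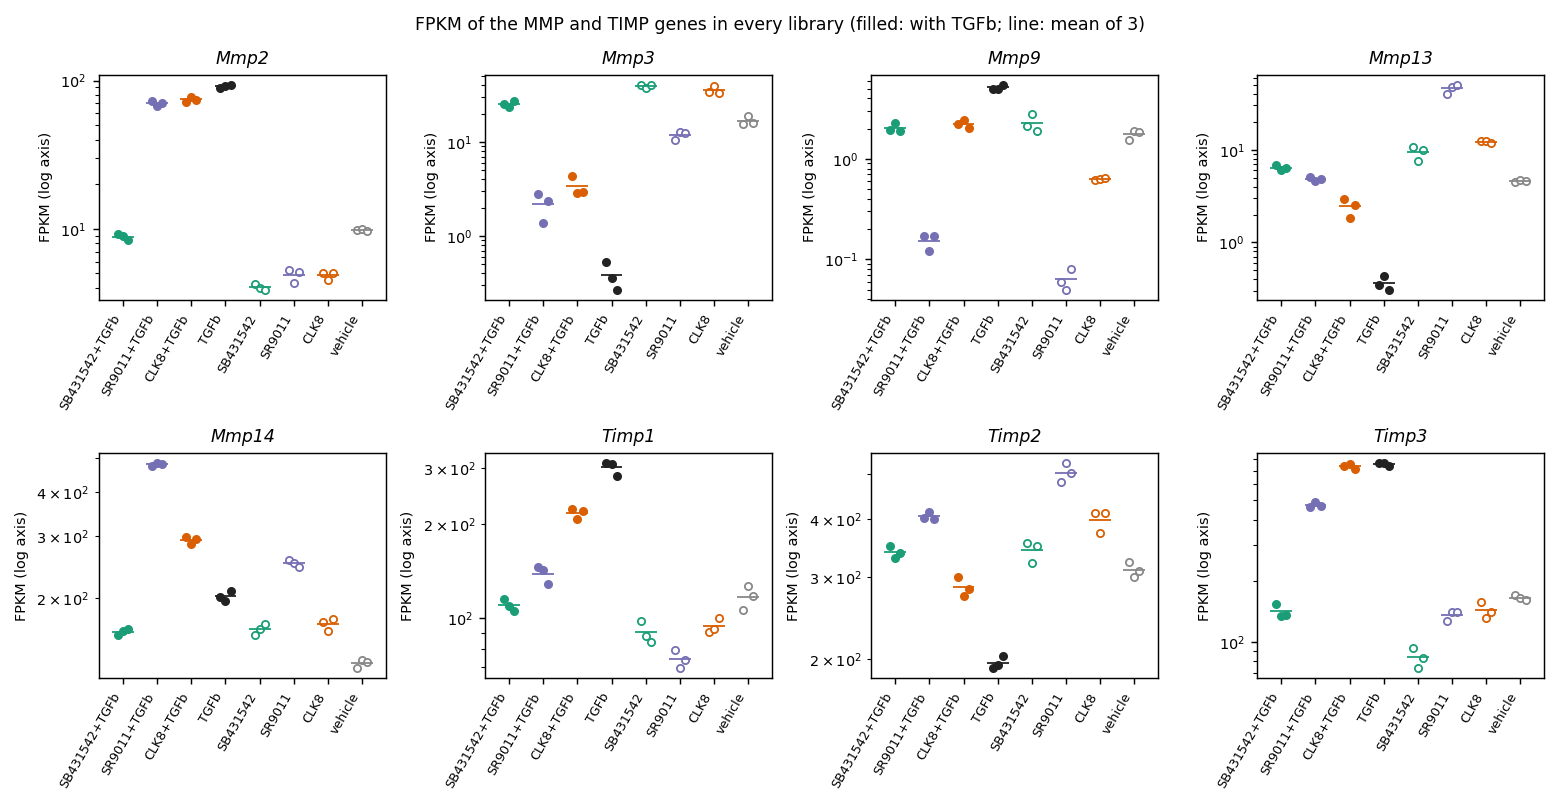
FPKM on a log axis of each of the 8 genes in every library, by treatment group, with compound and TGFb groups on the left and vehicle on the right; filled points had TGFb, and the line is the mean of 3 libraries. Mmp3 and Mmp13 are lowest with TGFb, Mmp9 lowest with SR9011, and Mmp14, Timp1 and Timp2 span less than 5-fold across the groups.

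TGFb alone moved every member, and it did so in opposite directions within both families. Mmp2, Mmp9, Mmp14, Timp1 and Timp3 were higher with TGFb than with vehicle, and Mmp3, Mmp13 and Timp2 were lower. The changes of Mmp2 and Mmp3 were among the 10 largest of 11297 genes tested. All 8 members passed the test (limma on log2(FPKM + 1), Benjamini-Hochberg adjusted over all tested genes, threshold 0.05), where 54.9% of all tested genes did, so that direction and size describe the members better than the number of calls. The members' median log2 change was 0.9, against -0.05 for all genes. In these bulk libraries, fewer cells that express a gene and less RNA per cell cannot be told apart.

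Among the gelatinases, Mmp2 had 89.6, 91.1 and 93.6 FPKM in the TGFb libraries, against 9.78, 9.94 and 9.73 in the vehicle libraries. The ranges were far apart, and the TGFb mean was 9.31 times the vehicle mean (log2 change 3.09 ± 0.0558, adjusted p = 3.66e-22). Here and below ± after a log2 change is its SE. Mmp9 had 4.99, 4.99 and 5.47 FPKM with TGFb, against 1.53, 1.89 and 1.85 with vehicle. Every TGFb library exceeded every vehicle library, by a ratio of means of 2.93 (log2 change 1.16 ± 0.0807, adjusted p = 2.95e-11). With TGFb, Mmp2 had moved to rank 946 of 16604 genes by level, while Mmp9 stayed a low transcript at rank 8758.

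The stromelysin and collagenase genes of chromosome 9, Mmp3 and Mmp13, fell to under 0.6 FPKM in every TGFb library. Mmp3 had 0.53, 0.36 and 0.27 FPKM with TGFb, against 15.7, 18.7 and 16 with vehicle. Mmp13 had 0.35, 0.43 and 0.31 FPKM with TGFb, against 4.51, 4.74 and 4.55 with vehicle. Neither gene had overlapping ranges. The vehicle mean of Mmp3 was 43.4 times the TGFb mean (log2 change -3.68 ± 0.136, adjusted p = 1.77e-15), and that of Mmp13 was 12.7 times the TGFb mean (log2 change -2.04 ± 0.104, adjusted p = 1.02e-13). Adding 1 to FPKM shrinks the change of genes this low. With 0.1 in place of 1, the log2 change of Mmp13 was -3.35.

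Mmp14, the membrane-bound activator of Mmp2, had 201, 196 and 209.7 FPKM with TGFb, against 127, 134 and 131 with vehicle. This was a smaller shift, 1.55 times the vehicle mean, with no overlap of the libraries (log2 change 0.63 ± 0.0406, adjusted p = 7.63e-12).

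The inhibitors divided as well. Timp3 had 764, 764 and 742 FPKM with TGFb, against 171, 165 and 160.1 with vehicle, and ranked 106 of 16604 genes in TGFb cells. Its TGFb mean was 4.58 times the vehicle mean (log2 change 2.19 ± 0.0708, adjusted p = 2.74e-17). Timp1 had 312, 310.2 and 285 FPKM with TGFb, against 106, 127 and 118 with vehicle, a ratio of 2.58 (log2 change 1.37 ± 0.0685, adjusted p = 8.52e-14). Both inhibitors were higher in each TGFb library than in any vehicle library. Timp2 went the other way, with 191, 194 and 203 FPKM with TGFb, against 323, 300.4 and 309 with vehicle. Its highest TGFb library lay below its lowest vehicle library, and the vehicle mean was 1.58 times the TGFb mean (log2 change -0.66 ± 0.0522, adjusted p = 2.62e-10).

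**Figure D2:**
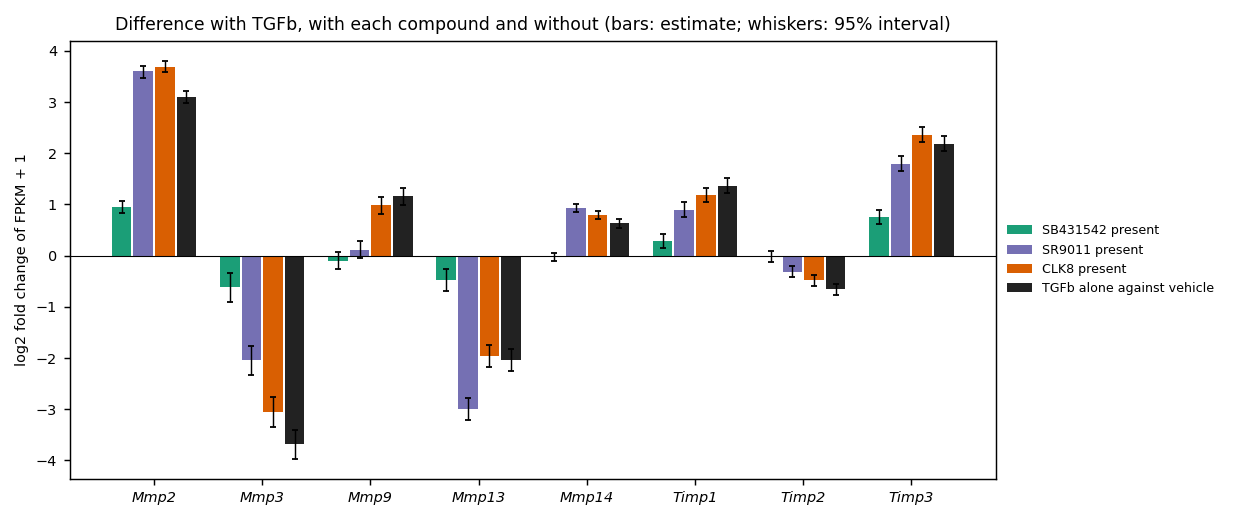
Log2 fold change of FPKM + 1 (y axis) with TGFb in cells with each compound and in cells without compound, for the 8 genes, with bars for the estimate and whiskers for its 95% interval. The bars for SB431542 are short: Mmp2 changed by 0.96 with SB431542, against 3.09 without compound, while the Mmp2 bars for SR9011 and CLK8 stand above the one without compound.

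The receptor inhibitor alone lowered Mmp2, Timp1 and Timp3 and raised Mmp3, Mmp13, Mmp14 and, by a small margin, Mmp9 relative to vehicle. In all, 7 of 8 members were called with SB431542 against vehicle, where 16.9% of tested genes were called. Mmp3 had 40.3, 37.8 and 40.5 FPKM with SB431542, all above the vehicle libraries (mean 16.8 ± 1.64, SD, n = 3), with a log2 change of 1.19 ± 0.136, adjusted p = 1.72e-06. Mmp13 had 10.6, 7.6 and 9.94 FPKM with SB431542, also above every vehicle library (log2 change 0.88 ± 0.104, adjusted p = 1.65e-06). Mmp2 had 4.26, 3.99 and 3.89 FPKM with SB431542, its lowest group of the study, less than any vehicle library (log2 change -1.1 ± 0.0558, adjusted p = 1.16e-11).

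Timp3 had 93.5, 74.3 and 83.1 FPKM with SB431542, against a vehicle mean of 165 ± 5.25, and the vehicle mean was 1.98 times the SB431542 mean (log2 change -0.98 ± 0.0708, adjusted p = 1.45e-09). Timp1 had 98.3, 88 and 84.3 FPKM with SB431542, below the vehicle libraries by a smaller step (log2 change -0.37 ± 0.0685, adjusted p = 0.000437). Mmp14 had 157, 164 and 169 FPKM with SB431542, above the vehicle libraries (log2 change 0.32 ± 0.0406, adjusted p = 4.34e-06). For Timp3, Timp1 and Mmp14 the libraries of the groups did not overlap. Mmp9 had 2.11, 2.8 and 1.9 FPKM with SB431542 (log2 change 0.24 ± 0.0807, adjusted p = 0.0439). The call of Mmp9 was lost without SB431542 replicate 2 (log2 change 0.13, adjusted p = 0.297), without vehicle replicate 1 (0.18, adjusted p = 0.214) and without vehicle replicate 3 (0.26, adjusted p = 0.0629), and with FPKM + 0.5 or FPKM + 0.1, without the filter, with quantile normalization and with the compared groups fitted alone (adjusted p 0.0505 to 0.146). Timp2 had 356, 322 and 350.1 FPKM with SB431542 and overlapped the vehicle libraries (log2 change 0.14, 95% interval 0.03 to 0.25, adjusted p = 0.0704). The Timp2 call was gained without SB431542 replicate 2 (adjusted p = 0.0308).

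SB431542 given with TGFb set every member apart from TGFb alone. Mmp3, Mmp13 and Timp2 were higher with SB431542+TGFb than with TGFb, and Mmp2, Mmp9, Mmp14, Timp1 and Timp3 were lower. This comparison and that of TGFb with vehicle share the TGFb libraries. All 8 members were called, where 59.7% of tested genes were. Mmp3 had 25.5, 23.8 and 27.2 FPKM with SB431542+TGFb, and no TGFb library exceeded 0.53. The ratio of means was 66.0 (log2 change 4.26 ± 0.136, adjusted p = 1.04e-16). Mmp13 had 6.82, 6.04 and 6.36 FPKM with SB431542+TGFb, 17.6 times the TGFb mean (log2 change 2.44 ± 0.104, adjusted p = 3.29e-15, and 3.82 with FPKM + 0.1).

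Mmp2 had 9.17, 8.87 and 8.35 FPKM with SB431542+TGFb, all below 10, and the TGFb mean was 10.4 times as high (log2 change -3.24 ± 0.0558, adjusted p = 1.32e-22). Timp3 had 154, 134 and 136 FPKM with SB431542+TGFb (log2 change -2.41 ± 0.0708, adjusted p = 3.26e-18). Timp1 had 115, 109 and 105 FPKM with SB431542+TGFb (log2 change -1.45 ± 0.0685, adjusted p = 2.02e-14). Both inhibitors were lower in every library with SB431542+TGFb than in any library with TGFb alone. Mmp9 had 1.93, 2.27 and 1.91 FPKM with SB431542+TGFb, below the TGFb libraries (log2 change -1.02 ± 0.0807, adjusted p = 2.13e-10). Mmp14 had 157, 162 and 163 FPKM with SB431542+TGFb, the smallest shift of the group (log2 change -0.33 ± 0.0406, adjusted p = 2.58e-07). Timp2 had 350.3, 329.6 and 339 FPKM with SB431542+TGFb, all above the TGFb libraries (log2 change 0.79 ± 0.0522, adjusted p = 8.94e-12).

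TGFb still moved some members under SB431542. Against SB431542 alone, SB431542+TGFb was higher for Mmp2 (0.96 ± 0.0558, adjusted p = 2.26e-10), Timp3 (0.75 ± 0.0708, adjusted p = 4.07e-07) and Timp1 (0.28 ± 0.0685, adjusted p = 0.016) and lower for Mmp3 (-0.61 ± 0.136, adjusted p = 0.0102) and Mmp13 (-0.48 ± 0.104, adjusted p = 0.00803). These 5 of 8 members stood against 4.36% of all tested genes called, and each moved as it did with TGFb in the absence of SB431542. Mmp9, Mmp14 and Timp2 were not called, with 95% intervals of -0.27 to 0.07, -0.11 to 0.06 and -0.12 to 0.1. Mmp2 and Timp3 stayed called whichever library was left out. The call of Timp1 was lost without SB431542 replicate 2 or 3 or SB431542+TGFb replicate 1 or 2, with adjusted p up to 0.128, and those of Mmp3 and Mmp13 without SB431542 replicate 3 or SB431542+TGFb replicate 2, with adjusted p up to 0.0581 and 0.0602. The Mmp3 call was also lost with FPKM + 0.1 (-0.63, adjusted p = 0.0965).

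Against vehicle, cells with SB431542+TGFb differed in 3 of 8 members, where 3.5% of tested genes were called. Mmp14 was higher at 160.5 ± 3.4 FPKM with SB431542+TGFb against 131 ± 3.41 with vehicle (log2 change 0.3 ± 0.0406, adjusted p = 0.000173). Mmp3 was higher at 25.5 ± 1.72 FPKM against 16.8 ± 1.64 with vehicle (log2 change 0.58 ± 0.136, adjusted p = 0.0183), and Mmp13 at 6.41 ± 0.392 against 4.6 ± 0.123 FPKM (log2 change 0.4 ± 0.104, adjusted p = 0.0299). The Mmp13 call was lost whichever of the 6 libraries was left out (adjusted p 0.0626 to 0.11), and the Mmp3 call without SB431542+TGFb replicate 1 or 3 or vehicle replicate 1 or 3 (adjusted p 0.0537 to 0.0939). With FPKM + 0.1 both calls were lost (adjusted p = 0.129 for Mmp3 and 0.0537 for Mmp13), and that of Mmp13 also without the filter (adjusted p = 0.0606) and with quantile normalization (adjusted p = 0.0641). For Timp1, the 95% interval of the log2 difference was -0.23 to 0.06, for Timp2 0.02 to 0.24, for Timp3 -0.37 to -0.08, for Mmp2 -0.26 to -0.03 and for Mmp9 -0.03 to 0.31. The Timp3 call was gained without SB431542+TGFb replicate 1 (adjusted p = 0.0425) and with the compared groups fitted alone (adjusted p = 0.046).

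SR9011 alone lowered Mmp9 to under 0.1 FPKM and raised Mmp13 to its highest level of the study. Mmp14 and Timp2 were higher as well, while Mmp2, Mmp3, Timp1 and Timp3 were lower. All 8 members were called against vehicle, in a comparison where 69.1% of tested genes were. Mmp13 had 40.0, 47.4 and 50.2 FPKM with SR9011, against 4.51, 4.74 and 4.55 with vehicle. The lowest SR9011 library stood more than 8 times above the highest vehicle library, and the ratio of means was 9.97 (log2 change 3.06 ± 0.104, adjusted p = 6.09e-17). Mmp9 had 0.06, 0.05 and 0.08 FPKM with SR9011, against 1.53, 1.89 and 1.85 with vehicle. At 2 decimals these SR9011 values are a few steps above 0, and the vehicle mean was 27.7 times the SR9011 mean. The log2 change of Mmp9 was -1.37 ± 0.0807, adjusted p = 6.71e-13, and it was -3.51 with FPKM + 0.1.

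Mmp3, from the same stretch of chromosome 9 as Mmp13, did not follow it: Mmp3 had 10.5, 12.8 and 12.4 FPKM with SR9011, against 15.7, 18.7 and 16 with vehicle, and was lower (log2 change -0.47 ± 0.136, adjusted p = 0.00445). The ratio of Mmp3 to Mmp13 was 0.26 ± 0.0116 with SR9011, against 3.65 ± 0.255 with vehicle (SD, n = 3). Mmp14 had 256, 251 and 246 FPKM with SR9011, 1.92 times the vehicle mean (log2 change 0.94 ± 0.0406, adjusted p = 2.79e-15). Mmp2 had 5.26, 4.31 and 5.11 FPKM with SR9011, and the vehicle mean was 2.01 times that (log2 change -0.88 ± 0.0558, adjusted p = 2.72e-12). The enzyme and its activator thus moved in opposite directions. Mmp2 and Mmp14 did so against vehicle with SB431542 (log2 changes -1.1 and 0.32) and with CLK8 (-0.89 and 0.37) as well. Timp2 had 479.5, 528 and 504 FPKM with SR9011, its highest group (log2 change 0.69 ± 0.0522, adjusted p = 5.29e-11). Timp1 had 79.2, 69.5 and 73.6 FPKM with SR9011, its lowest group (log2 change -0.65 ± 0.0685, adjusted p = 1.56e-08). Timp3 had 126, 140.3 and 141 FPKM with SR9011, below the vehicle libraries (log2 change -0.28 ± 0.0708, adjusted p = 0.00115).

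**Figure D3:**
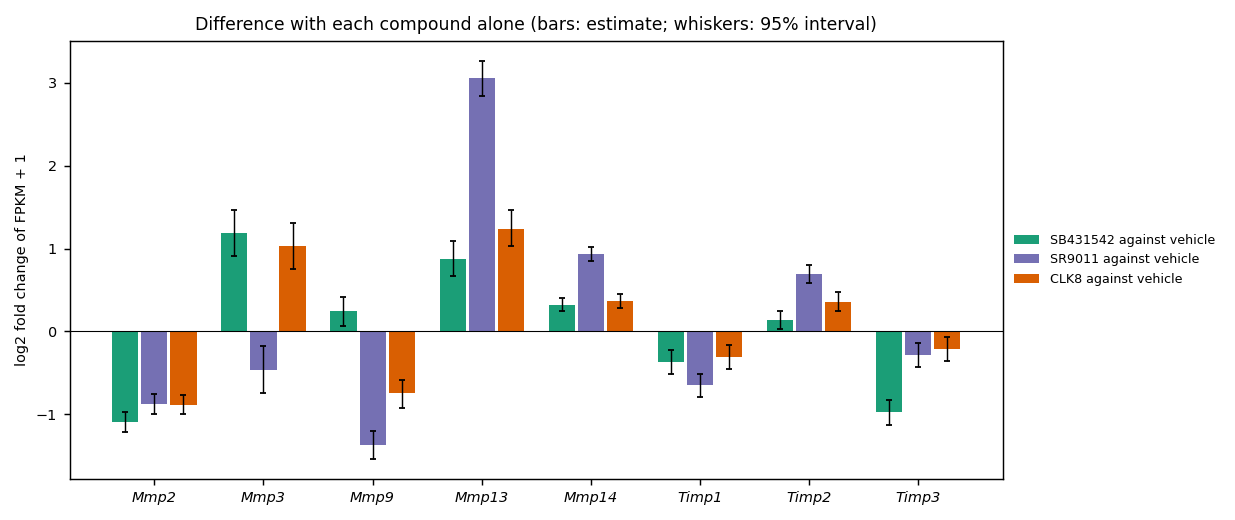
Log2 fold change of FPKM + 1 (y axis) of the 8 genes with SB431542, SR9011 or CLK8, each against the same vehicle libraries, with bars for the estimate and whiskers for its 95% interval. Mmp13 and Mmp14 are above 0 and Mmp2, Timp1 and Timp3 below 0 with each compound, while Mmp3 is above 0 with SB431542 and CLK8 and below 0 with SR9011.

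With TGFb, SR9011 left Mmp2 high, kept Mmp9 near 0 and took Mmp14 to the highest level of any protease here. Against TGFb alone, Mmp3, Mmp13, Mmp14 and Timp2 were higher with SR9011+TGFb and Mmp2, Mmp9, Timp1 and Timp3 lower, all 8 called, where 60.8% of tested genes were. Mmp14 had 474, 483 and 479 FPKM with SR9011+TGFb, against 201, 196 and 209.7 with TGFb. The groups were far apart, at 2.37 times the TGFb mean (log2 change 1.24 ± 0.0406, adjusted p = 5.16e-17). Mmp9 had 0.17, 0.12 and 0.17 FPKM with SR9011+TGFb, against 4.99, 4.99 and 5.47 with TGFb. The TGFb mean was 33.6 times as high (log2 change -2.41 ± 0.0807, adjusted p = 6.35e-17, and -4.38 with FPKM + 0.1).

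Mmp2 had 72.5, 67.8 and 70.3 FPKM with SR9011+TGFb, each below the TGFb libraries but more than 6 times the vehicle libraries (log2 change against TGFb -0.38 ± 0.0558, adjusted p = 3.84e-06). Mmp13 had 5.03, 4.62 and 4.8 FPKM with SR9011+TGFb, 13.3 times the TGFb mean (log2 change 2.09 ± 0.104, adjusted p = 5.2e-14, and 3.41 with FPKM + 0.1). Mmp3 had 2.82, 1.38 and 2.33 FPKM with SR9011+TGFb, above the TGFb libraries and far below vehicle (log2 change against TGFb 1.17 ± 0.136, adjusted p = 1.82e-07, and 2.2 with FPKM + 0.1). Among the inhibitors, Timp1 had 145, 143 and 128 FPKM with SR9011+TGFb, under the lowest TGFb library, and the TGFb mean was 2.18 times as high (log2 change -1.12 ± 0.0685, adjusted p = 2.25e-12). Timp3 had 465, 492 and 467 FPKM with SR9011+TGFb (log2 change -0.67 ± 0.0708, adjusted p = 2.41e-08). Timp2 had 403, 414 and 400.2 FPKM with SR9011+TGFb, 2.07 times the TGFb mean (log2 change 1.04 ± 0.0522, adjusted p = 6.12e-14). Timp1 and Timp3 were thus lower and Timp2 higher than with TGFb alone, with no overlap of libraries.

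Within SR9011-treated cells, TGFb kept its direction for the 7 members called, where 45.3% of tested genes were called. SR9011+TGFb against SR9011 was higher for Mmp2 (3.6 ± 0.0558, adjusted p = 2.49e-23), Timp3 (1.8 ± 0.0708, adjusted p = 1.09e-15), Mmp14 (0.93 ± 0.0406, adjusted p = 7.54e-15) and Timp1 (0.9 ± 0.0685, adjusted p = 2.3e-10). It was lower for Mmp13 (-3.0 ± 0.104, adjusted p = 8.26e-17), Mmp3 (-2.04 ± 0.136, adjusted p = 5.51e-11) and Timp2 (-0.31 ± 0.0522, adjusted p = 3.87e-05). Mmp9 had 0.153 FPKM with SR9011+TGFb and 0.0633 with SR9011, a difference that was not called on the log2(FPKM + 1) scale (log2 change 0.12, adjusted p = 0.25) and was called with FPKM + 0.1 (log2 change 0.63, adjusted p = 0.00054). Against vehicle, SR9011+TGFb changed 7 of 8 members, where 65.2% of tested genes were called. Mmp9 was lower (log2 change -1.25 ± 0.0807, adjusted p = 3.76e-12, and -2.87 with FPKM + 0.1). Mmp13 was the member not called, at 4.82 ± 0.206 FPKM with SR9011+TGFb against 4.6 ± 0.123 with vehicle (95% interval of the log2 difference -0.16 to 0.27).

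CLK8 alone raised Mmp3, Mmp13, Mmp14 and Timp2 and lowered Mmp2, Mmp9, Timp1 and Timp3. All 8 members were called against vehicle, where 43.9% of tested genes were. Mmp13 had 12.4, 12.5 and 11.9 FPKM with CLK8, 2.66 times the vehicle mean (log2 change 1.24 ± 0.104, adjusted p = 1.74e-09). Mmp3 had 34.1, 38.9 and 32.9 FPKM with CLK8, 2.1 times the vehicle mean (log2 change 1.03 ± 0.136, adjusted p = 2.79e-06). The stromelysin and the collagenase therefore both rose with CLK8. Mmp2 had 5.04, 4.48 and 5.04 FPKM with CLK8, and the vehicle mean was 2.02 times as high (log2 change -0.89 ± 0.0558, adjusted p = 1.88e-11). Mmp9 had 0.62, 0.63 and 0.65 FPKM with CLK8, below the vehicle libraries (log2 change -0.75 ± 0.0807, adjusted p = 8.57e-08, and -1.33 with FPKM + 0.1).

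Mmp14 had 171, 162 and 174 FPKM with CLK8, above the vehicle libraries (log2 change 0.37 ± 0.0406, adjusted p = 1.29e-07). Timp2 had 412, 373 and 411 FPKM with CLK8, also above them (log2 change 0.36 ± 0.0522, adjusted p = 7.31e-06). Timp1 had 90.2, 92.6 and 100.05 FPKM with CLK8, below the vehicle libraries (log2 change -0.31 ± 0.0685, adjusted p = 0.000903). Timp3 showed the smallest change, with 157, 132 and 140.3 FPKM in CLK8 cells, just under the vehicle libraries (log2 change -0.21 ± 0.0708, adjusted p = 0.0182). The Timp3 call was lost without CLK8 replicate 2 (adjusted p = 0.109), CLK8 replicate 3 (adjusted p = 0.0539) or vehicle replicate 1 (adjusted p = 0.0664).

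With TGFb, CLK8 raised Mmp3, Mmp13, Mmp14 and Timp2 over TGFb alone and lowered Mmp2, Mmp9 and Timp1. These were 7 of 8 members, where 41.1% of tested genes were called. Mmp3 had 4.37, 2.87 and 2.97 FPKM with CLK8+TGFb, 8.8 times the TGFb mean (log2 change 1.65 ± 0.136, adjusted p = 4.86e-09, and 2.86 with FPKM + 0.1). Mmp13 had 2.95, 1.82 and 2.56 FPKM with CLK8+TGFb, 6.72 times the TGFb mean (log2 change 1.32 ± 0.104, adjusted p = 1.05e-09, and 2.44 with FPKM + 0.1). Both stood above every TGFb library and below every vehicle library. Mmp14 had 299, 285 and 294 FPKM with CLK8+TGFb, 1.45 times the TGFb mean (log2 change 0.53 ± 0.0406, adjusted p = 7.23e-10). Mmp2 had 72, 77.6 and 74.2 FPKM with CLK8+TGFb, under every TGFb library (log2 change -0.29 ± 0.0558, adjusted p = 0.000232).

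Mmp9 had 2.23, 2.46 and 2.01 FPKM with CLK8+TGFb, and the TGFb mean was 2.31 times as high (log2 change -0.93 ± 0.0807, adjusted p = 5.39e-09). Timp1 had 223, 208 and 219.6 FPKM with CLK8+TGFb, under the TGFb libraries (log2 change -0.48 ± 0.0685, adjusted p = 6.93e-06). Timp2 had 299.5, 273 and 283 FPKM with CLK8+TGFb, above them (log2 change 0.54 ± 0.0522, adjusted p = 3.07e-08). Timp3 was the exception, with 742, 756 and 713 FPKM with CLK8+TGFb against 764, 764 and 742 with TGFb. The libraries overlapped and the change was not called (log2 change -0.04, 95% interval -0.18 to 0.11, adjusted p = 0.707).

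**Figure D4:**
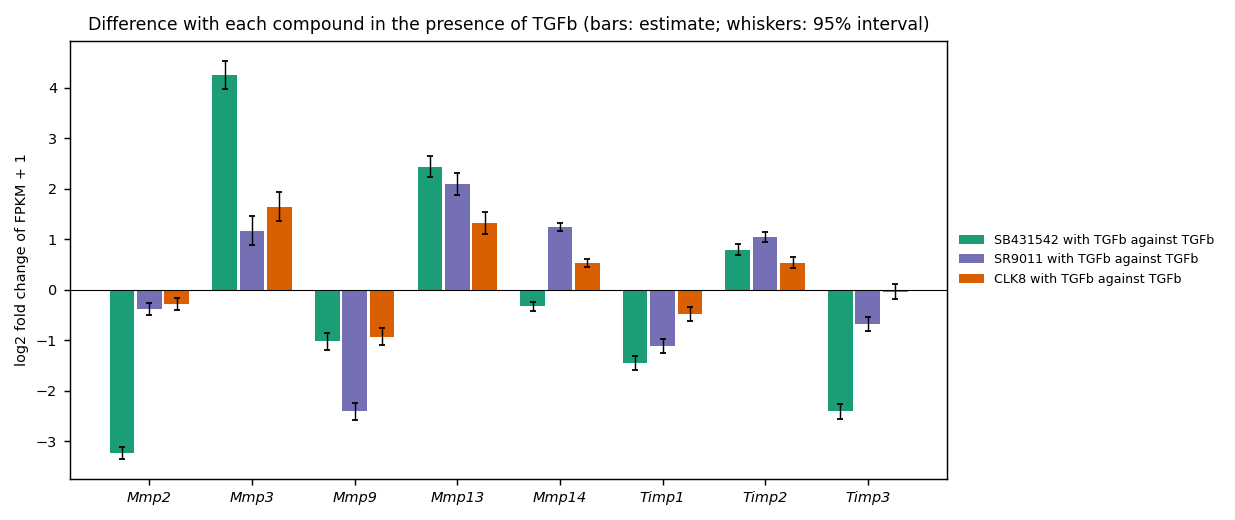
Log2 fold change of FPKM + 1 (y axis) of the 8 genes with SB431542+TGFb, SR9011+TGFb or CLK8+TGFb against TGFb alone, with bars for the estimate and whiskers for its 95% interval. Mmp3, Mmp13 and Timp2 are above 0 with all 3 compounds and Mmp2, Mmp9 and Timp1 below 0, while Mmp14 is below 0 with SB431542 and above 0 with SR9011 and CLK8.

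In CLK8-treated cells TGFb kept its direction for all 8 members, each of them called, where 51.9% of tested genes were. CLK8+TGFb against CLK8 was higher for Mmp2 (3.69 ± 0.0558, adjusted p = 1.4e-23), Timp3 (2.36 ± 0.0708, adjusted p = 5.48e-18), Timp1 (1.19 ± 0.0685, adjusted p = 7.55e-13), Mmp9 (0.98 ± 0.0807, adjusted p = 4.7e-10, and 1.67 with FPKM + 0.1) and Mmp14 (0.79 ± 0.0406, adjusted p = 9.9e-14). It was lower for Mmp3 (-3.06 ± 0.136, adjusted p = 3.21e-14), Mmp13 (-1.96 ± 0.104, adjusted p = 1.77e-13) and Timp2 (-0.48 ± 0.0522, adjusted p = 5.03e-08). Against vehicle, CLK8+TGFb changed all 8 members, where 55.3% of tested genes were called. The changes of Mmp9 (0.23 ± 0.0807, adjusted p = 0.019) and Timp2 (-0.12 ± 0.0522, adjusted p = 0.0479) were small. The Mmp9 call was lost without CLK8+TGFb replicate 2 (adjusted p = 0.0988) or vehicle replicate 1 (adjusted p = 0.11). The Timp2 call was lost without CLK8+TGFb replicate 2 or 3 or vehicle replicate 1 or 3 (adjusted p 0.0847 to 0.193) and with TPM scaling (adjusted p = 0.78), quantile normalization (adjusted p = 0.434) and no filter (adjusted p = 0.0536).

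The difference between the TGFb response with and without a compound was tested as an interaction on the log2 scale. With SB431542 all 8 members differed, where 34.3% of tested genes did, and for each the TGFb response was smaller with the inhibitor. The largest interactions were those of Mmp3 (3.07 ± 0.192, adjusted p = 6.62e-11), Mmp2 (-2.14 ± 0.079, adjusted p = 1.33e-15), Mmp13 (1.56 ± 0.147, adjusted p = 1.6e-08, and 2.82 with FPKM + 0.1) and Timp3 (-1.43 ± 0.1, adjusted p = 1.45e-10). Smaller ones were found for Mmp9 (-1.26 ± 0.114, adjusted p = 9.23e-09), Timp1 (-1.08 ± 0.0968, adjusted p = 7.77e-09), Mmp14 (-0.65 ± 0.0573, adjusted p = 5.61e-09) and Timp2 (0.65 ± 0.0738, adjusted p = 3.35e-07).

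With SR9011 all 8 members also differed, where 31.9% of tested genes did, but not all in the same direction. Mmp2 averaged 4.89 FPKM with SR9011 and 70.2 with SR9011+TGFb, against 9.82 with vehicle and 91.4 with TGFb. On the log2 scale the response of Mmp2 was larger with SR9011, with log2 changes by TGFb of 3.6 with SR9011 and 3.09 without (interaction 0.5 ± 0.079, adjusted p = 4.46e-05), and so was that of Mmp14 (0.3 ± 0.0573, adjusted p = 0.000352). It was smaller for Mmp3 (1.64 ± 0.192, adjusted p = 1.86e-06, and 2.7 with FPKM + 0.1), Mmp9 (-1.04 ± 0.114, adjusted p = 4.98e-07), Timp1 (-0.47 ± 0.0968, adjusted p = 0.000779), Timp2 (0.35 ± 0.0738, adjusted p = 0.000934) and Timp3 (-0.39 ± 0.1, adjusted p = 0.00494). For Mmp13 the fall was larger with SR9011 on this scale (-0.97 ± 0.147, adjusted p = 3.01e-05), but the sign turned with FPKM + 0.1 (interaction 0.13, adjusted p = 0.636). By ratio of mean FPKM, TGFb raised Mmp9 2.42 times with SR9011 and 2.93 times without, and with FPKM + 0.1 the interaction of Mmp9 was -0.87 (adjusted p = 0.00134). By the same ratio, cells without TGFb had 9.52 times the Mmp13 of cells with TGFb in the presence of SR9011, and 12.7 times in its absence.

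With CLK8, 2 of 8 members had a different TGFb response, where 7.97% of tested genes did. Mmp2 averaged 4.85 FPKM with CLK8 and 74.6 with CLK8+TGFb, against 9.82 with vehicle and 91.4 with TGFb. On the log2 scale the response of Mmp2 was larger with CLK8 (interaction 0.6 ± 0.079, adjusted p = 2.15e-05). That of Mmp3 was smaller (0.63 ± 0.192, adjusted p = 0.0484), a call lost without CLK8+TGFb replicate 1, CLK8 replicate 1 or 3, TGFb replicate 2 or 3, or any vehicle library (adjusted p 0.0544 to 0.123), and without the filter (adjusted p = 0.0795). With FPKM + 0.1 the interaction of Mmp3 was 1.79 (adjusted p = 0.000555). The other 6 were not called, with 95% intervals of -0.41 to 0.06 for Mmp9, -0.22 to 0.39 for Mmp13, 0.04 to 0.28 for Mmp14, -0.37 to 0.03 for Timp1, 0.03 to 0.33 for Timp2 and -0.03 to 0.38 for Timp3. With FPKM + 0.1 the interaction of Mmp13 was called at 1.05 (adjusted p = 0.00097).

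SR9011 and CLK8, which act on different parts of the circadian clock, were set against each other in comparisons added after the data were seen. Their doses are not given. Without TGFb, SR9011 was higher than CLK8 for Mmp13 (1.82 ± 0.104, adjusted p = 8.49e-13), Mmp14 (0.57 ± 0.0406, adjusted p = 3.48e-11) and Timp2 (0.34 ± 0.0522, adjusted p = 6.45e-06). SR9011 was lower than CLK8 for Mmp3 (-1.49 ± 0.136, adjusted p = 4.29e-09), Mmp9 (-0.62 ± 0.0807, adjusted p = 5.79e-07, and -2.17 with FPKM + 0.1) and Timp1 (-0.34 ± 0.0685, adjusted p = 0.000139). These were 6 of 8 members, where 63.6% of tested genes were called. Mmp2 and Timp3 were not called, with 95% intervals of -0.11 to 0.12 and -0.22 to 0.08. With TGFb, SR9011+TGFb was higher than CLK8+TGFb for Mmp13 (0.77 ± 0.104, adjusted p = 1.45e-06), Mmp14 (0.71 ± 0.0406, adjusted p = 2.25e-12) and Timp2 (0.51 ± 0.0522, adjusted p = 2.8e-08). It was lower for Mmp9 (-1.49 ± 0.0807, adjusted p = 1.03e-12, and -3.21 with FPKM + 0.1), Timp1 (-0.64 ± 0.0685, adjusted p = 5.05e-08), Timp3 (-0.63 ± 0.0708, adjusted p = 9.62e-08) and Mmp3 (-0.48 ± 0.136, adjusted p = 0.00497). These were 7 of 8, where 53.6% of tested genes were called, and Mmp2 was not called (95% interval -0.2 to 0.03). The Mmp3 call was lost without SR9011+TGFb replicate 2 (log2 change -0.29, adjusted p = 0.0527) and with the compared groups fitted alone (-0.48, adjusted p = 0.0713). The Mmp2 difference was called with TPM scaling (-0.21, adjusted p = 0.00247).

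The order of the group means, from high to low, differed from gene to gene. Mmp2 was highest with TGFb, then CLK8+TGFb and SR9011+TGFb, whose libraries overlapped, then vehicle, SB431542+TGFb, SR9011 and CLK8, which overlapped, and SB431542. Timp3 began with TGFb and CLK8+TGFb, which overlapped, then SR9011+TGFb and vehicle, then CLK8, SB431542+TGFb and SR9011 in overlap, and ended with SB431542. Timp1 ran TGFb, CLK8+TGFb, SR9011+TGFb, then vehicle with SB431542+TGFb, CLK8 with SB431542, and SR9011. These 3 genes shared their 3 highest groups. Mmp3 ran in nearly the reverse order, with SB431542 and CLK8 in overlap at the top, then SB431542+TGFb, vehicle, SR9011, CLK8+TGFb, SR9011+TGFb and TGFb. Mmp13 ran SR9011, CLK8, SB431542, SB431542+TGFb, then SR9011+TGFb with vehicle, CLK8+TGFb and TGFb. Timp2 ran SR9011, then SR9011+TGFb with CLK8, SB431542 with SB431542+TGFb, vehicle, CLK8+TGFb and TGFb. Mmp9 ran TGFb, then SB431542, CLK8+TGFb and SB431542+TGFb in overlap, vehicle, CLK8, SR9011+TGFb and SR9011. Mmp14 ran SR9011+TGFb, CLK8+TGFb, SR9011, TGFb, then CLK8, SB431542 and SB431542+TGFb in overlap, and vehicle.

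Over the 24 libraries, which share the same 8 treatments, Pearson correlations of log2(FPKM + 1) describe the same pattern. Mmp2 and Timp3 had r = 0.98, Mmp2 and Timp1 r = 0.90, and Timp1 and Timp3 r = 0.90. Mmp13 and Timp2 had r = 0.92. Mmp3 was opposed to Mmp2 and to Timp3, at r = -0.93 each, Mmp9 to Timp2 at r = -0.93 and Mmp13 to Timp1 at r = -0.91. Mmp3 and Mmp13, both on chromosome 9, had r = 0.64, and Mmp13 and Mmp14 r = -0.05.

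By the same measure, the named genes most like each member among all tested genes were as follows. Mmp2 was most like Kif26b (r = 0.99), Ccn4 (0.989), which encodes a matricellular protein, and Inava (0.987). Timp3 was most like Slit2 (0.987), a secreted guidance ligand, Kif26b (0.985) and Tiam1 (0.982). Timp1 was most like Pcdh18 (0.971), the collagen gene Col5a1 (0.97) and Pcolce2 (0.967), an enhancer of procollagen processing. Mmp9 was most like the collagen gene Col5a3 (0.973), Podnl1 (0.946) and the collagen gene Col27a1 (0.945). Mmp3 was most like C1rl (0.982), Gramd4 (0.978) and Selenop (0.977), and Mmp14 most like Pi16 (0.98), Stk10 (0.967) and Smurf1 (0.958), a ubiquitin ligase of SMAD proteins. Mmp13 was most like Fech (0.968), Vps26c (0.966) and Rchy1 (0.965), and Timp2 most like Vps35l (0.973) and Uap1l1 (0.972).

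Summed over the family members, both protease and inhibitor transcripts were higher with TGFb than with vehicle, while SR9011+TGFb gave the most protease transcript per inhibitor transcript. These sums are descriptions of transcript levels and were not tested. The 5 protease genes summed to 203.3 ± 3.51 FPKM with SB431542+TGFb, 556.2 ± 1.14 with SR9011+TGFb, 375.3 ± 5.24 with CLK8+TGFb and 299.7 ± 8.57 with TGFb. They summed to 218.6 ± 5.99 with SB431542, 313.7 ± 2.05 with SR9011, 221.9 ± 3.36 with CLK8 and 163.6 ± 5.21 with vehicle (SD, n = 3 each). Mmp14 made up most of the protease sum in every group, from 67.5% with TGFb to 86.1% with SR9011+TGFb. The 3 inhibitor genes summed to 590.9 ± 24.8 FPKM with SB431542+TGFb, 1019 ± 27.7 with SR9011+TGFb, 1239 ± 23.7 with CLK8+TGFb and 1255 ± 22.1 with TGFb. They summed to 516.5 ± 31.5 with SB431542, 713.4 ± 26.7 with SR9011, 635.9 ± 34.1 with CLK8 and 593.1 ± 6.27 with vehicle.

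The shares of the members within the sums also differed between groups. Mmp2 was 30.5% of the protease sum with TGFb and 6.0% with vehicle, and Mmp13 was 14.6% with SR9011 and 2.81% with vehicle. Timp3 was 60.3% of the inhibitor sum with TGFb and 27.9% with vehicle, and Timp2 was 15.6% with TGFb and 52.4% with vehicle. The ratio of the protease to the inhibitor sum was 0.546 ± 0.0144 with SR9011+TGFb, 0.303 ± 0.00524 with CLK8+TGFb and 0.345 ± 0.0185 with SB431542+TGFb, against 0.239 ± 0.0111 with TGFb. It was 0.424 ± 0.0286 with SB431542, 0.44 ± 0.0139 with SR9011 and 0.349 ± 0.0142 with CLK8, against 0.276 ± 0.0107 with vehicle. TGFb libraries had the lowest ratios and SR9011+TGFb libraries the highest, and neither group overlapped any other. Transcript ratios say nothing of protein, of precursor activation, of which inhibitor blocks which enzyme or of enzyme activity.

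**Figure D5:**
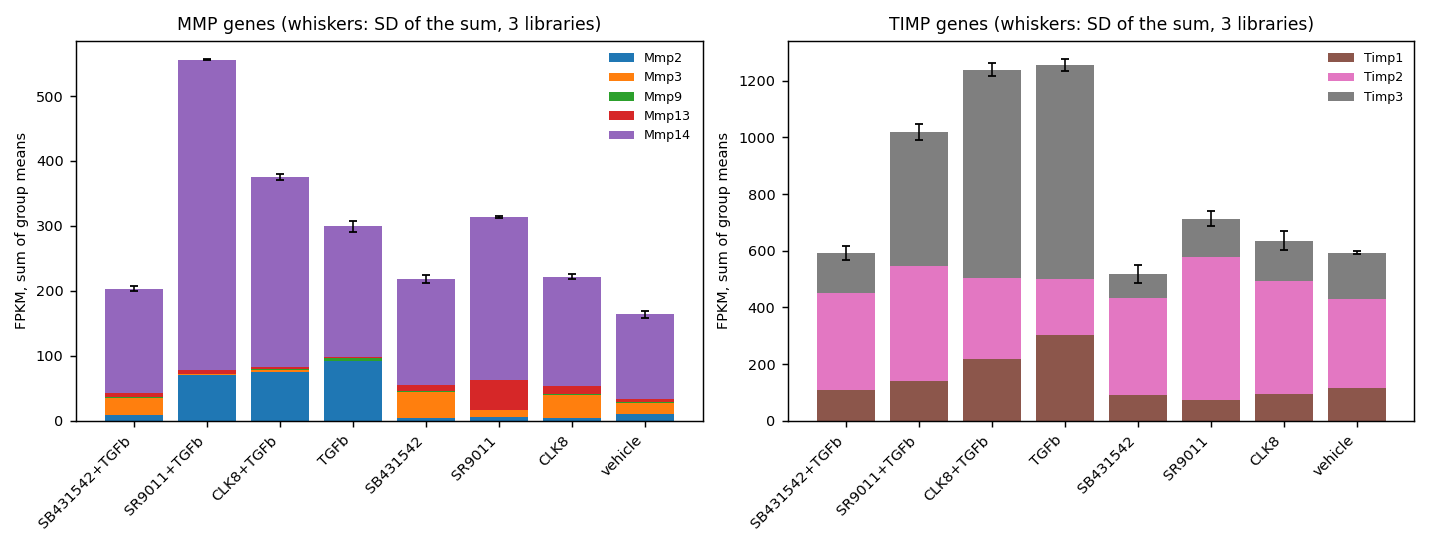
Stacked group means of FPKM of the 5 protease genes and of the 3 inhibitor genes by treatment group, with whiskers for the SD of the sum over 3 libraries. Mmp14 is the largest block of every protease bar, and the Timp3 block is largest with TGFb and CLK8+TGFb, where the inhibitor sums are 1255 and 1239.

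Other genes of the system were taken from lists. Of 18 other matrix metalloproteinases, 8 passed the filter on low levels. Among all tested genes 54.9% were called with TGFb against vehicle, 69.1% with SR9011 against vehicle, 60.8% with SR9011+TGFb against TGFb, 43.9% with CLK8 against vehicle and 16.9% with SB431542 against vehicle. With TGFb against vehicle 2 were higher and 3 lower, led by the membrane-anchored Mmp17 (-1.53, adjusted p = 1.5e-13), the membrane-type Mmp16 (0.73, adjusted p = 4.65e-08) and stromelysin 2, Mmp10 (-0.62, adjusted p = 5.34e-05). Mmp10, like its relative Mmp3, was lower with TGFb and higher with SB431542+TGFb than with TGFb (0.87, adjusted p = 4.27e-07). Mmp10 averaged 0.11 FPKM with TGFb and 0.703 with vehicle. Its mean reached 1 FPKM, the level of the filter, only with SB431542+TGFb (1.03) and SB431542 (1.14). As it passed the filter where it was high, its tests are not separate from the filter. With SR9011 against vehicle 4 were higher and 3 lower, led by Mmp28 (1.44), Mmp11 (1.19) and Mmp25 (1.16). The same 3 genes led with SR9011+TGFb against TGFb, where 5 were higher and 1 lower. Mmp25 averaged 1.91 FPKM with SR9011 and 1.51 with SR9011+TGFb, against 0.3 with vehicle and 0.513 with TGFb. Its mean was under 1 FPKM in every group without SR9011. It passed the filter through the SR9011 groups, so its count and place in both comparisons are not separate from the filter. With CLK8 against vehicle 3 were higher and 2 lower, led by Mmp17 (-1.36) and Mmp19 (0.55). With SB431542 against vehicle only Mmp19 was called (0.21, adjusted p = 0.0288). Of 5 other inhibitors, only Reck, a membrane-anchored inhibitor, passed the filter, with 2.24 to 4.64 FPKM. It was lower with TGFb (-0.19, adjusted p = 0.0133) and higher with SR9011 (0.5, adjusted p = 2.59e-07).

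ADAMTS enzymes, secreted relatives of which Timp3 inhibits several, were mostly lower with SR9011. Of 11 tested, 1 was higher and 8 lower with SR9011 against vehicle (median log2 change -0.62, against 0.06 for all genes, of which 69.1% were called), led by Adamts9 (-1.95), Adamts1 (-1.47) and the aggrecanase Adamts5 (-1.21). With TGFb against vehicle 5 were higher and 5 lower, where 54.9% of all tested genes were called, led by Adamts16 (1.74), Adamts9 (-1.48) and Adamts6 (1.32). Adamts16 averaged 2.35 FPKM with TGFb and 0 with vehicle, and its mean was under 1 FPKM in every other group. As it passed the filter where it was high, its count and leading place are not separate from the filter. Of 7 ADAM proteases tested, TGFb raised 1, Adam19 (0.56), and lowered 5, led by Adam33 (-0.92) and the sheddase Adam10 (-0.57), against the same 54.9% of all tested genes. Adam12 was lower with each compound against vehicle, with log2 changes of -0.54 with SB431542, -2.6 with SR9011 and -1.0 with CLK8.

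Of 12 tested genes of activation, docking and clearance of the proteases, TGFb raised 5 and lowered 5, where 54.9% of all tested genes were called. Plat, which encodes tissue plasminogen activator, was lower (-1.18, adjusted p = 1.63e-15). Plasmin made by plasminogen activators cleaves several of the precursors. Bsg, which encodes an inducer of metalloproteinases on neighbouring cells, was lower with SR9011 (-1.4). Of 11 tested AP-1, ETS and RUNX factors, TGFb raised 5 and lowered 2, where 54.9% of all tested genes were called. Runx1 was higher (3.0, adjusted p = 3.43e-20), as were Junb (0.66) and Runx2 (0.63). Runx1 was lower with SB431542+TGFb than with TGFb (-3.15). With SR9011 against vehicle Ets2 was higher (1.7) and Fosl1 (-1.15) and Junb (-0.99) were lower. Fos was higher with CLK8+TGFb against TGFb (1.1).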

How the data were processed

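RNA of 24 EMS404 libraries was extracted with either of 2 kits according to yield, and samples with a RIN under 6.0 were left out, per the labels' protocols; the sources used here do not tie kits to samples. The submitters' processing notes name mm10, HISAT2 2.0.4, Bowtie2 2.2.5, RSEM and DESeq2, with no roles. The table deposited by the authors holds FPKM at 2 decimals for 16620 lines in 24 columns, all mapped to a sample by name. Of 16612 gene identifiers, 8 appeared on 2 lines each, and dropping these 16 ambiguous lines left 16604 genes. Symbols and positions came from GENCODE M21 (GRCm38), and 43 identifiers had no symbol.

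Genes with at least 1 FPKM in at least 3 libraries (11297 genes, all 8 members among them) were fitted by limma 3.58.1 (R 4.3.3) on the log2(FPKM + 1) scale. All 8 groups were in 1 model with trend and robust moderation and 16 residual degrees of freedom. The mean squared deviation of log2 values from the group mean was 0.0192, 0.0119 and 0.00925 in the SR9011 libraries. In libraries of the other groups it was at most 0.00891. The shared spread can therefore make the SE of comparisons with SR9011 alone too small. For each comparison, 2-sided p-values were Benjamini-Hochberg adjusted over all tested genes, and 0.05 was the threshold. A change is the log2 estimate ± SE on the log2(FPKM + 1) scale, which understates the change of low genes, so the ratio of mean FPKM is given as well. The median SE was 0.0639 between groups and 0.0904 for an interaction. Overlap of libraries is described for the named genes only, and the share of all genes without overlap was not computed. The design text calls the samples biological triplicates, but nothing says that they came from separate days, so p-values measure only the spread between these samples. The fit was tested on simulated data. Of 18 comparisons, those of SR9011 with CLK8 were added after the data were seen. The members and gene lists were chosen with earlier results of these data known. From each list the text names, by rule, the called genes with the largest changes, and for each member the 3 genes of highest correlation, leaving out clone names. Some genes that these rules pick are not reported here.

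No label ties replicate numbers to batches. Same-numbered residuals correlated over 0.1 in each of 3 pairs for 2 among 28 pairs of groups. Of these only SB431542+TGFb with SB431542 (0.415, 0.208 and 0.117) was compared, and it counts as paired. The tests given for that comparison are unpaired. The alternatives tried were adding 0.1 or 0.5 to FPKM, dropping the filter or raising it to 5 FPKM, TPM, quantile normalization, no trend, the compared groups alone, a replicate block and each library left out in turn. Promoters came from RefSeq (GRCm38.p6), and Python 3.11.15 with pandas 2.3.3, numpy 2.4.6 and matplotlib 3.10.9 made tables and figures.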

Additional observations from a re-analysis of the deposited data

Results flagged for a closer look

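The TGFb response of the members differed between cells with and without a compound in 18 interaction tests (limma, Benjamini-Hochberg adjusted over all tested genes). They are listed here because they were called. With SB431542 8 of 8 members were called, where 34.3% of all tested genes were. With SR9011 it was 8 of 8, where 31.9% of tested genes were called, and with CLK8 2 of 8, where 7.97% were. Each value is the TGFb change with the compound minus that without it, on the log2(FPKM + 1) scale. With SB431542 the differences were -2.14 for Mmp2, 3.07 for Mmp3, -1.26 for Mmp9, 1.56 for Mmp13, -0.65 for Mmp14, -1.08 for Timp1, 0.65 for Timp2 and -1.43 for Timp3. For each of the 8 genes this means a smaller TGFb response with the inhibitor. With SR9011 they were 0.5 for Mmp2, 1.64 for Mmp3, -1.04 for Mmp9, -0.97 for Mmp13, 0.3 for Mmp14, -0.47 for Timp1, 0.35 for Timp2 and -0.39 for Timp3. The Mmp13 difference turned sign with FPKM + 0.1 (0.13, adjusted p = 0.636), and by ratio of mean FPKM the Mmp13 of cells without TGFb was 9.52 times that of cells with TGFb under SR9011, against 12.7 times without it. The Mmp9 rise with TGFb was 2.42 times with SR9011 and 2.93 times without it by the same ratio. With CLK8 they were 0.6 for Mmp2 and 0.63 for Mmp3. The Mmp3 call was lost without the filter or without any 1 of 8 libraries (adjusted p 0.0544 to 0.123). On the log2 scale, Mmp2 and Mmp14 with SR9011 and Mmp2 with CLK8 are the cases in which the TGFb rise was larger with a compound. In FPKM the Mmp2 rise was smaller with either compound, as Mmp2 both started and ended lower. It averaged 4.89 FPKM with SR9011 and 70.2 with SR9011+TGFb, and 4.85 with CLK8 and 74.6 with CLK8+TGFb. Without compound Mmp2 averaged 9.82 FPKM with vehicle and 91.4 with TGFb.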

How the results depend on the processing

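Across the 9 alternative settings, 1253 member values kept their direction and their side of the threshold, 15 lost the call, 4 gained one and 6 changed sign. With FPKM + 0.1, the interaction of SR9011 changed sign for Mmp13 (0.13) and that of CLK8 for Mmp9 (0.16), and 1 member in place of 3 was called for SB431542+TGFb against vehicle. With TPM, Mmp2 for SR9011 against CLK8 was -0.06. With quantile normalization, Timp3 for CLK8+TGFb against TGFb was 0.11, Timp2 for SB431542+TGFb against SB431542 0.02 and Timp3 for SR9011 against CLK8 0.01. None of these 6 was called under the alternative. Without the filter, 1 member in place of 2 had a CLK8 interaction, and with at least 5 FPKM Mmp9 had no value. The causes were not tested.

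With 1 library left out, 958 values stayed as they were, 39 lost the call, 2 gained one and 9 changed sign. The range was -0.02 to 0.22 for the Mmp13 interaction with CLK8, -0.04 to 0.08 for Mmp2 with SR9011 against CLK8, and, with SB431542+TGFb against SB431542, -0.06 to 0.02 for Timp2, -0.18 to 0.01 for Mmp9 and -0.05 to 0 for Mmp14. With SB431542+TGFb against SB431542, 2 to 5 members and 199 to 513 genes were called (5 and 493 with all libraries), against vehicle 1 to 2 and 180 to 299 (3 and 395), and for the CLK8 interaction 1 to 2 and 615 to 868 (2 and 900). The replicate block changed 0 of 144 member calls: the paired comparison, SB431542+TGFb against SB431542, had 5 members called with and without it, and 547 genes against 493. This block is a replicate effect shared by all groups. A pairing particular to SB431542+TGFb and SB431542 was not fitted, so whether these calls hold under it is not known.

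Read totals are unknown, and no counting interval is given. Mmp9 with SR9011, and Mmp3 and Mmp13 with TGFb, were all under 0.6 FPKM in a table of 2 decimals.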

Other observations

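Mmp3 and Mmp13 lie in a run of metalloproteinase genes on chromosome 9 (chr9:7272514-7581885 from the first to the last such gene in the table, GRCm38), which also holds Mmp12, Mmp10, Mmp8 and Mmp27. These 4 neighbours had lower means than Mmp3 and Mmp13 in every group. With TGFb the gap was small, with Mmp10 at 0.11, Mmp3 at 0.387 and Mmp13 at 0.363 FPKM. Mmp12, macrophage elastase, reached at most 0.07 FPKM, Mmp8, neutrophil collagenase, at most 0.61, and Mmp27 at most 0.72. Mmp10 averaged 1.03 FPKM with SB431542+TGFb, 0.55 with SR9011+TGFb, 0.423 with CLK8+TGFb and 0.11 with TGFb, and 1.14 with SB431542, 0.31 with SR9011, 0.357 with CLK8 and 0.703 with vehicle. Mmp8 and Mmp27 had their highest group means with CLK8, at 0.527 and 0.627 FPKM, against 0.0967 and 0.29 with vehicle, too low to be tested.

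Within the run, Mmp13 was high with SR9011, while the stromelysins Mmp3 and Mmp10 were not. The other collagenase, Mmp8, was not high either, at 0.04 FPKM with SR9011 against 0.0967 with vehicle. With SR9011, Mmp13 averaged 45.9, Mmp3 11.9 and Mmp10 0.31 FPKM, against 4.6, 16.8 and 0.703 with vehicle. With CLK8, Mmp13 and Mmp3 were both above vehicle, at 12.2 and 35.3 FPKM, and Mmp10 was at 0.357.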
